A study of Mus musculus with 6 samples.

Results

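The major histocompatibility complex (MHC) class I presentation machinery was described from 10 genes, chosen by symbol: the heavy chain genes H2-K1, H2-D1, H2-Q4 and H2-T23, the light chain gene B2m, the peptide transporter genes Tap1 and Tap2, the loading factor gene Tapbp, the peptidase gene Erap1 and the regulator gene Nlrc5. These were 10 of the 31130 genes in the tables. All 10 passed the filter on low counts, which left 11240 genes to test. RNA from 3 tumor samples of the lung cancer (LC) model was compared with that from 3 of the model of interstitial pneumonia with lung cancer (IP+LC), to see how gene expression in the tumor differed when the lung had been injured first. All groups were wild-type female C57BL/6 mice, 6 to 8 weeks old. Each received cells of Lewis lung carcinoma (LLC), a cancer line of mouse lung that carries enhanced green fluorescent protein, by injection into the left lung on day 14, and tumor tissue was taken on day 21. The IP+LC mice had inhaled bleomycin, a drug that injures the lung, at 2.0 mg/kg body weight through the oropharynx 14 days before the cells were injected, and the LC mice had received saline. The tumors came from 1 cell line in 1 mouse strain, and the sources used here describe no separation of cancer cells from host lung before the RNA was extracted.

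Class I molecules show fragments of a cell's own proteins at its surface. Proteasomes cut the proteins, the TAP transporter carries the peptides into the endoplasmic reticulum, Erap1 trims them, and tapasin (the product of Tapbp) holds an empty heavy chain with its light chain, B2m, at the transporter until a peptide binds. Cytotoxic T cells read the peptide, and natural killer (NK) cells sense whether class I molecules are present. Most cells of the lung carry some class I, leukocytes carry much of it, and interferon-gamma is the best known inducer, acting in part through Irf1 and the co-activator Nlrc5.

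Values are unique molecular identifiers (UMIs) per gene, each standing for 1 captured molecule, and levels are given as CPM, the UMIs of a gene per 1000000 UMIs of a library after scaling of the libraries. Each molecule was tagged once at its 3′ end, so levels of different genes were compared without division by transcript length. The libraries held 592733 UMIs for LC replicate 1 and 1336919 to 1631066 UMIs for the other 5. A count of 3 UMIs, taken as the floor, corresponded to 5.09 CPM in LC replicate 1 and to 1.72 to 2.44 CPM in the others. LC replicate 1 stood apart from its group, with a chi-square per degree of freedom of 13.4 and 17.7 against the other LC libraries, which gave 6.32 between themselves. The labels give the tissue as tumor and the cell type as lung cancer cells, and markers of host lung were abundant in every library. The 7 markers of alveolar and airway epithelium summed to 69810 to 75160 CPM in LC and to 7991 to 14080 CPM in IP+LC, and 7 of 7 were lower in IP+LC. Of the 8 endothelial markers 8 were lower, and of the 4 proliferation markers 4 were higher. Beside these marker counts, 16.8% of all genes tested were higher in IP+LC and 19.6% lower. The 5 leukocyte markers summed to 1060 to 1206 CPM in LC and to 1271 to 1710 CPM in IP+LC, with 2 of 5 higher. The 9 macrophage markers summed to 2320 CPM in LC replicate 1, to 854 and 606 CPM in the other LC tumors and to 2379 to 3002 CPM in IP+LC, with 5 of 9 higher. None of these markers of leukocytes, macrophages, epithelium or endothelium was at 0 in any library. None of the 5 tested T cell markers passed the test in either direction, and Cd3e and Cd8a were at 0 in at least 1 library. In bulk tissue, fewer cells of a type cannot be told apart from less RNA per cell, and the part of these shifts in the values below was not tested. The ratios given below remove the scaling of libraries and not a change in the mix of cells.

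Of the 10 genes, 7 were higher in IP+LC at an adjusted p below 0.1 (edgeR quasi-likelihood test, Benjamini-Hochberg over all 11240 genes), and 0 were lower. Over all genes tested, 16.8% were higher and 19.6% lower, 36.4% in either direction. Nlrc5, Tap1, Tap2 and Tapbp had the largest estimates of the 7, Erap1, H2-T23 and H2-D1 followed, and H2-K1, B2m and H2-Q4 did not pass the test. The estimate was above 0 for 10 of 10, with a median log2 fold change of 0.89 beside 0.02 for all genes tested. For the same 7 genes every IP+LC tumor exceeded every LC tumor, against 21.9% of all genes tested. Without LC replicate 1, 8 of the 10 were higher, where 28.3% of 11748 genes were. The adjusted p-values measure the spread between these 6 samples, since the labels do not say more of the replicates than a number per model.

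**Figure D1:**
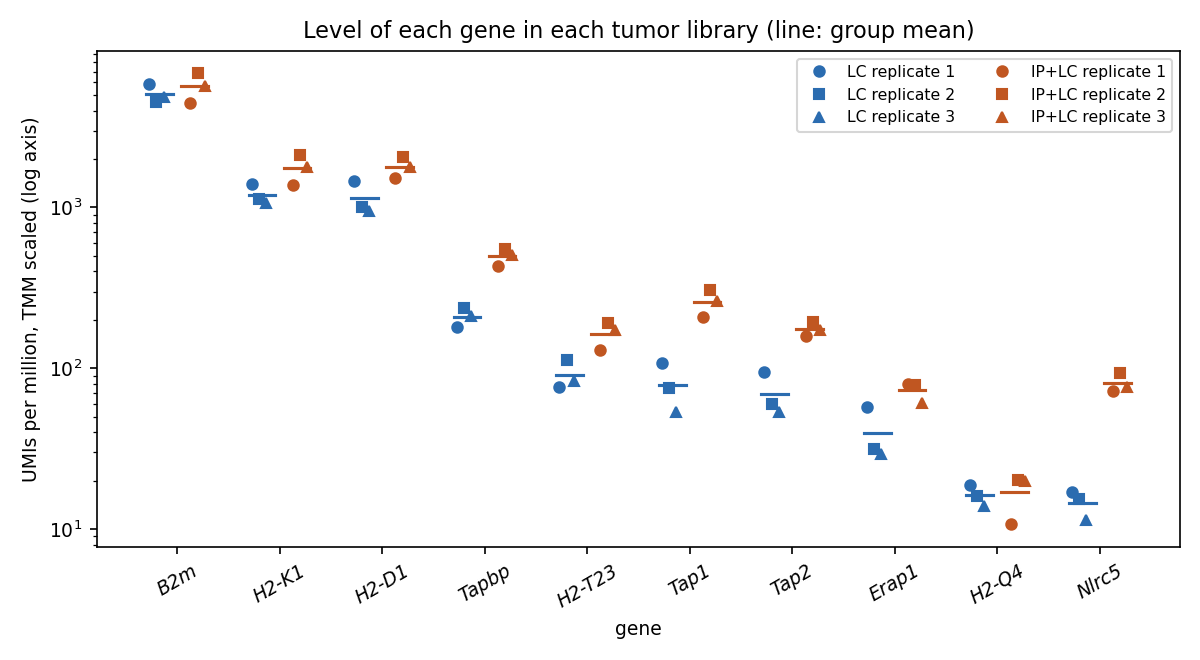
Level of each of the 10 genes in each tumor library, in CPM after TMM scaling on a log axis; blue symbols are LC, orange symbols IP+LC, the symbol shape is the replicate and the short lines are group means. The groups separate for 7 genes, most widely for Nlrc5 with 11.4 to 16.97 CPM in LC and 72.0 to 94.0 CPM in IP+LC, while those of B2m, H2-K1 and H2-Q4 overlap.

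**Figure D2:**
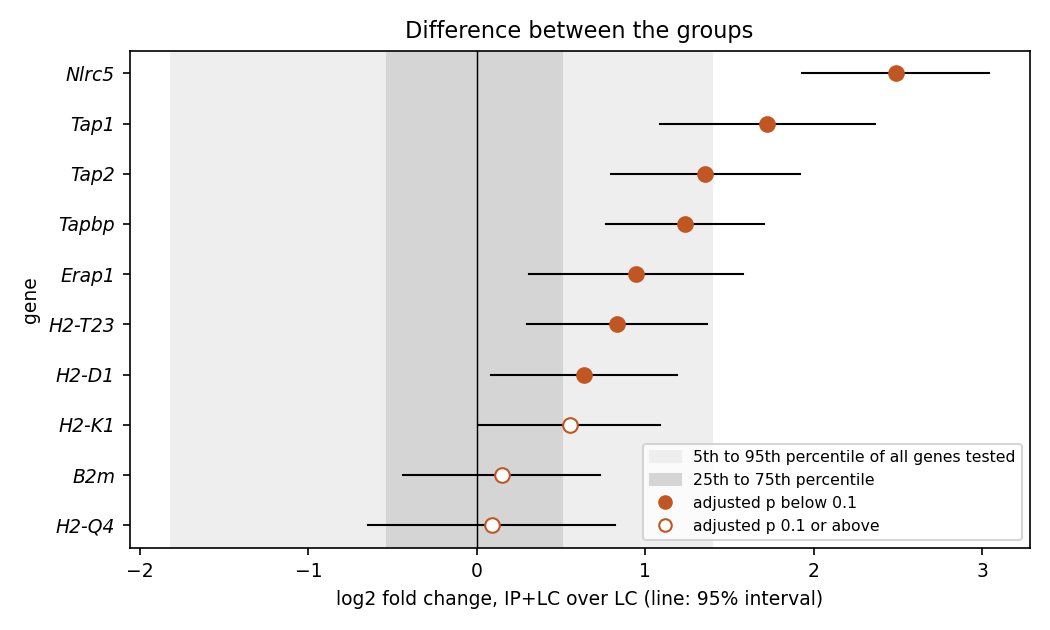
Log2 fold change of each gene, IP+LC over LC, with its 95% interval; filled circles have an adjusted p below 0.1, and grey bands give the 5th to 95th and the 25th to 75th percentile of all 11240 genes tested. The estimates run from 0.09 for H2-Q4 to 2.49 for Nlrc5, and Nlrc5 and Tap1 lie beyond the 95th percentile of 1.40.

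The classical heavy chains H2-K1 and H2-D1, which present peptides to cytotoxic T cells, were abundant in both groups. H2-K1, on the minus strand of chr17:33996017-34000347 (GRCm38), had 1390, 1137 and 1061 CPM in LC replicates 1 to 3 and 1379, 2130 and 1783 CPM in IP+LC replicates 1 to 3. The groups met at IP+LC replicate 1, which lay just under LC replicate 1. Its log2 fold change was 0.55 (SE 0.24, 95% interval 0.01 to 1.09) and did not pass the test over all genes (adjusted p = 0.119). Without LC replicate 1 it did (0.67, adjusted p = 0.00375). H2-D1 (chr17:35262730-35267499, plus strand) had 1471, 1014 and 956 CPM in LC and 1531, 2051 and 1793 CPM in IP+LC. LC replicate 1 was close below the lowest IP+LC tumor, and the other LC tumors were far below it. H2-D1 was 1.55 times higher in IP+LC (log2 fold change 0.64, SE 0.24, adjusted p = 0.0841). That call was the least firm of the 7, since it was lost when any library other than LC replicate 1 was left out (adjusted p from 0.12 to 0.244), with upper quartile factors (0.137) and after thinning to the smallest library (0.106), and was kept with a smaller p without LC replicate 1 (0.85, adjusted p = 0.000243). Part of its transcript is nearly identical to other genes, H2-Q7 among them, over 30% of the last 500 bases, while H2-K1 had no such match. The ratio of H2-K1 to H2-D1 within a library was 94.5, 112 and 111 per 100 in LC and 90.0, 103.9 and 99.4 per 100 in IP+LC. These ranges overlapped (0.92 times, exact permutation test, two-sided p = 0.3), so the pair kept close to equal numbers of molecules in every tumor.

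Both genes, and H2-Q4, share an upstream stretch in which class I regulators are known to bind, and it is shown so that H2-K1 and H2-D1 can be set beside H2-Q4, the heavy chain with the smallest estimate. RefSeq promoter windows (GRCm38.p6, 250 bases before to 50 after the first start of a gene) were available for 8 of the 10 genes. Capitals mark matches, on either strand, to GGGGATTCC (the class I kappaB site of enhancer A), GAANNGAAA (a core of the interferon-stimulated response element), TGACG (the short site that CREB and ATF factors bind, part of the module Nlrc5 acts through) and CCAAT, the NF-Y site, which reads ATTGG on the other strand. The stretches lie at chr17:34000343-34000472 (minus strand), chr17:35262909-35263038 (plus) and chr17:35379429-35379558 (plus).
H2-K1: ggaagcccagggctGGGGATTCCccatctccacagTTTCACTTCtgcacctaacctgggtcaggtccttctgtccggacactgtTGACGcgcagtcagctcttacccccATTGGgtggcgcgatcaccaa
H2-D1: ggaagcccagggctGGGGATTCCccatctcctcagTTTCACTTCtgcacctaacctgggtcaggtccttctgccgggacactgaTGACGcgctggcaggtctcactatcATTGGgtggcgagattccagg
H2-Q4: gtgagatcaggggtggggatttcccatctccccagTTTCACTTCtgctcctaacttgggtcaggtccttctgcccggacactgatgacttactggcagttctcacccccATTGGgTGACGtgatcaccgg
Over these 130 bases H2-K1 and H2-D1 were identical at 86.9% of positions, and H2-Q4 at 83.1% with each. GGGGATTCC was found in the windows of H2-K1 and H2-D1, 2 of 8, and in 0.259% of 27025 windows of all genes. These letters are those of the class I site itself, so their presence in class I genes is no test. At the same place H2-Q4 reads ggggatttc, which differs in 1 letter and was not marked, so a related site there is not excluded. GAANNGAAA was found in 3 of 8 (H2-K1, H2-D1, H2-Q4) against 7.56%, and it was added after a first search with GAAANNGAA, the same core with the gap moved by 1 base, so that 1 longer run of letters can hold both. TGACG was found in 5 of 8 (these 3, B2m and Tap1) against 21%, before ATTGG in H2-K1 and H2-D1 but after it in H2-Q4, and CCAAT in 7 of 8, all but Erap1, against 37.9%. The letters TTCNNNGAA, the core of the gamma-activated sequence, were in 0 of 8 windows and in 8.47% of all. A match describes letters and not a bound site.

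Of the non-classical heavy chains, H2-T23 was higher in IP+LC and H2-Q4 did not pass the test. H2-T23 encodes Qa-1, which shows leader peptides of other class I chains to NK cell receptors. It lies on the minus strand of chr17:36029773-36032855 and had 76.4, 112 and 83.9 CPM in LC and 130, 190 and 172 CPM in IP+LC. Every IP+LC tumor was above every LC tumor, and the gene was 1.78 times higher (log2 fold change 0.83, SE 0.24, adjusted p = 0.0306). Without IP+LC replicate 2, its highest tumor, the estimate was 0.73 and the adjusted p 0.129, and after thinning to the smallest library they were 0.70 and 0.11. Of its last 500 bases 97.4% match other transcripts almost exactly, first among them H2-T-ps, so its count may hold or lack molecules of copies. H2-Q4, a widely expressed chain of the Q region (chr17:35379617-35385290, plus strand), had 18.7, 16.0 and 13.8 CPM in LC and 10.7, 20.1 and 19.97 CPM in IP+LC. These rested on 11 to 21 UMIs in LC and 15 to 35 UMIs in IP+LC, and IP+LC replicate 1 was the lowest of all 6. Its log2 fold change was 0.09 (SE 0.32, 95% interval -0.65 to 0.82, adjusted p = 0.868). In H2-Q4, 59.0% of the last 500 bases match other transcripts. Relative to H2-K1 and H2-D1, H2-Q4 and H2-T23 together made 3.32, 5.97 and 4.84 per 100 in LC and 4.85, 5.03 and 5.37 per 100 in IP+LC (exact permutation p = 0.8). LC replicate 1 was the lowest of the 6, and the IP+LC tumors lay within the range of LC. The window of H2-T23 held none of the kappaB, TGACG or GAANNGAAA letters, but a match to GAAANNGAA, in capitals at chr17:36032786-36032854, minus strand, a core found in 8.57% of all windows.
H2-T23: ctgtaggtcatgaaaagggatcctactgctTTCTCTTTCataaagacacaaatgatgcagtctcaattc

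B2m, the light chain shared by all these molecules, was the most abundant of the 10, and its difference did not pass the test. The gene (chr2:122147686-122153083, plus strand) had 5822, 4553 and 4838 CPM in LC and 4466, 6829 and 5685 CPM in IP+LC. IP+LC replicate 1 was the lowest tumor of all 6 and IP+LC replicate 2 the highest. Its log2 fold change was 0.15 (SE 0.26, 95% interval -0.44 to 0.73, adjusted p = 0.707). B2m made 62.8% to 66.2% of the UMIs of the 10 genes in LC and 52.7% to 54.9% in IP+LC. The 4 heavy chains together stood at 50.8, 50.1 and 43.7 UMIs per 100 of B2m in LC and at 68.3, 64.3 and 66.3 per 100 in IP+LC. This ratio, which no scaling of libraries can move, did not overlap between the groups and was 48.2 ± 3.88 (SD, n = 3) in LC and 66.3 ± 2.003 (SD, n = 3) in IP+LC. It was 1.38 times higher (exact permutation test, two-sided p = 0.1, the smallest that 3 against 3 allow, and 0.2 after adjustment over the 10 ratios computed). So heavy chain transcripts were more numerous per light chain transcript in each IP+LC tumor, also in IP+LC replicate 1, the lowest of its group for both. The B2m window held a GAAANNGAA match, TGACG and CCAAT at chr2:122147529-122147658.
B2m: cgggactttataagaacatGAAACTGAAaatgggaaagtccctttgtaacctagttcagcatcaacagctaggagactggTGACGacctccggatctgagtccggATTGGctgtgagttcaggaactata

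**Figure D3:**
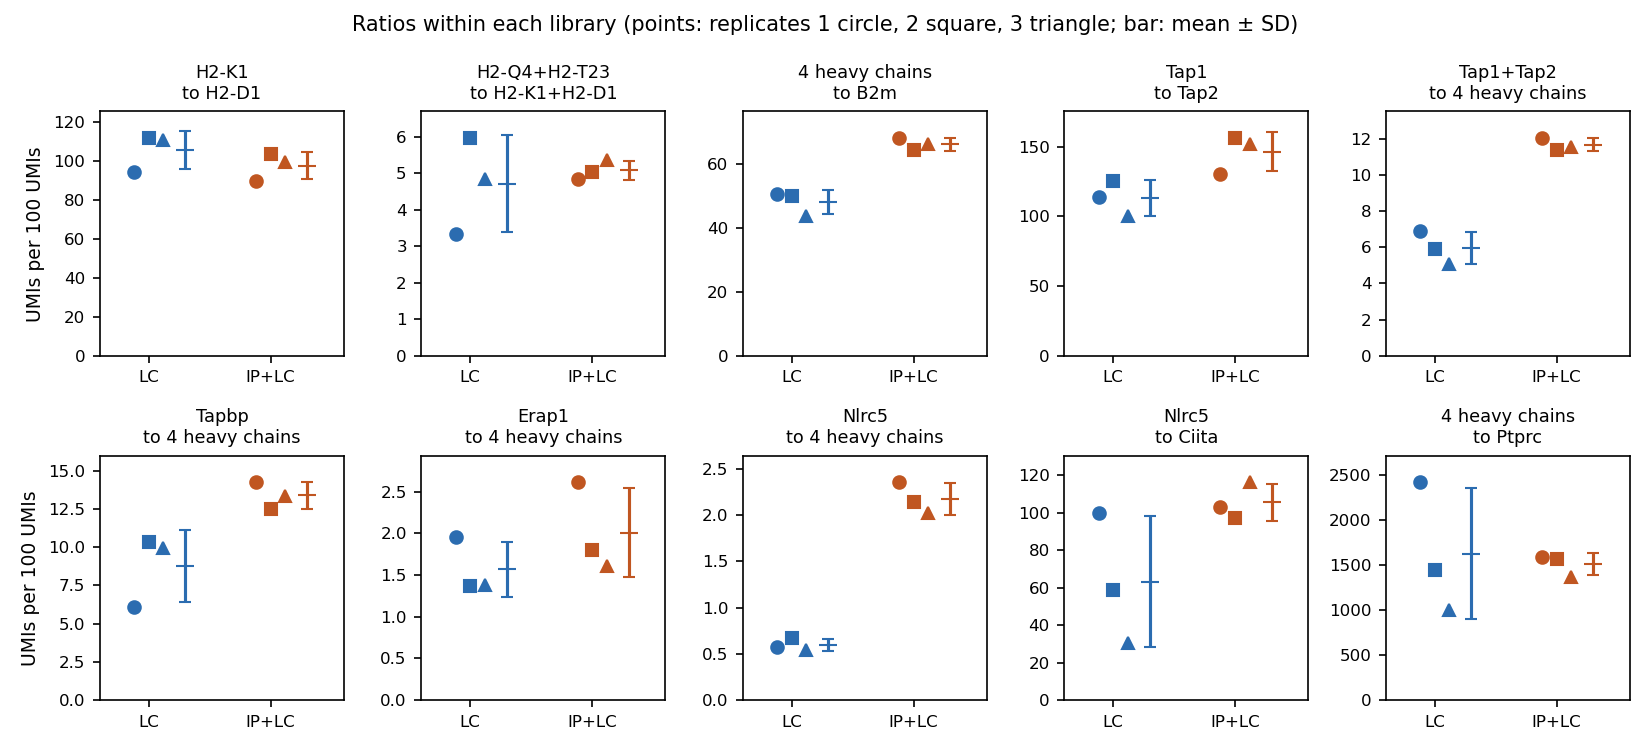
Ratios of UMIs within each library, per 100 UMIs of the second gene or group; circles, squares and triangles are replicates 1, 2 and 3, and bars give the group mean ± SD (n = 3). Heavy chains per B2m, Tap1 per Tap2, and transporter, tapasin and Nlrc5 per heavy chain do not overlap between LC and IP+LC, and the other 5 ratios overlap.

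The transporter genes and the tapasin gene were higher in IP+LC, with larger estimates than any of the heavy chains. Tap1 and Tap2 encode the paired subunits of the peptide transporter and lie close together in the MHC. Tap1 (chr17:34187553-34197225, plus strand) had 109, 74.9 and 53.8 CPM in LC and 208, 305 and 262 CPM in IP+LC. Even the highest LC tumor, replicate 1, was far below the lowest IP+LC tumor, and the gene was 3.30 times higher (log2 fold change 1.72, SE 0.28, adjusted p = 0.00345). For Tap2 (chr17:34203527-34216321, plus strand), LC tumors had 95.02, 59.6 and 53.8 CPM and IP+LC tumors 160, 195 and 173 CPM. The groups again did not overlap, with a log2 fold change of 1.36 (SE 0.25, adjusted p = 0.00526). There were 114, 126 and 100 Tap1 molecules per 100 of Tap2 in LC and 130, 157 and 152 in IP+LC, 1.29 times more (exact permutation p = 0.1, adjusted 0.2). Tapbp, the tapasin gene (chr17:33915899-33929292, plus strand), had 180, 235 and 210 CPM in LC and 435, 550 and 504 CPM in IP+LC. LC replicate 1 was its lowest tumor, unlike for the transporter genes, and the log2 fold change was 1.24 (SE 0.21, adjusted p = 0.0037). Tap1, Tap2 and Tapbp passed the test under each of 17 other settings, with the lowest log2 fold change 1.5 for Tap1, 1.20 for Tap2 and 1.14 for Tapbp. Of the exonic bases of Tapbp 29.0% are shared with other genes, Zbtb22 on the same strand among them, and the corresponding shares were 18.5% for Tap2 and 3.87% for Tap1.

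Per heavy chain molecule, both the transporter and tapasin were more abundant in IP+LC. Tap1 and Tap2 together made 6.89, 5.90 and 5.08 per 100 heavy chain UMIs in LC and 12.1, 11.4 and 11.6 in IP+LC, 1.97 times more (exact permutation p = 0.1, adjusted 0.2). Tapbp made 6.08, 10.3 and 9.94 per 100 in LC and 14.3, 12.5 and 13.4 in IP+LC, 1.56 times more with all libraries and 1.32 times more without LC replicate 1 (exact permutation p = 0.1 with all, adjusted 0.2). For both ratios every IP+LC tumor lay above every LC tumor. The Tap1 start lies head to head with that of Psmb9, an immunoproteasome subunit gene on the other strand, with 212 exonic bases in common. The stretch before it, chr17:34187390-34187519, is shown for its TGACG match, since no kappaB or response element letters were found in its window.
Tap1: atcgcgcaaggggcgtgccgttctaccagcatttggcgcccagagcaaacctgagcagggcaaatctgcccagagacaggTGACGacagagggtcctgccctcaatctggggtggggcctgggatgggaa

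Erap1, the peptidase that trims peptides to the length class I molecules hold, was higher in IP+LC as well. The gene lies at chr13:74639568-74693201 on the plus strand. LC tumors had 57.7, 31.3 and 29.3 CPM and IP+LC tumors 79.8, 79.1 and 60.6 CPM. LC replicate 1 nearly reached the lowest IP+LC tumor, IP+LC replicate 3. The log2 fold change was 0.94 (SE 0.28, adjusted p = 0.0356), and 1.26 without LC replicate 1 (adjusted p = 0.000128). It was lost when LC replicate 2, LC replicate 3, IP+LC replicate 1 or IP+LC replicate 2 was left out, with adjusted p of 0.156, 0.12, 0.122 and 0.136. Of its exonic bases 11.5% overlap Cast, on the other strand, and the strand setting of the counting was not given in the sources used here. Per 100 heavy chain UMIs, Erap1 made 1.95, 1.37 and 1.39 in LC and 2.62, 1.80 and 1.61 in IP+LC, ranges that overlapped (exact permutation p = 0.3). Its window held 2 overlapping GAAANNGAA matches at the start, which merge into 1 run of capitals at chr13:74639814-74639882, plus strand.
Erap1: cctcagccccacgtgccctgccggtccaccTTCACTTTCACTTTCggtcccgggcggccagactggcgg
Of 9 other peptidases of the cytosol and endosome, 5 were higher and 0 lower, beside 16.8% and 19.6% of all genes tested. They were Lap3, a leucine aminopeptidase induced by interferon-gamma (log2 fold change 1.35, adjusted p = 0.00409), Npepps (0.82, adjusted p = 0.0233), Cndp2 (0.62), Tpp2 (0.84) and Thop1 (0.99). Thop1 is an oligopeptidase that degrades class I peptides. Lnpep, which trims peptides for cross-presentation in endosomes, stood at 0.37 on this scale (adjusted p = 0.432).

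Nlrc5, the co-activator that binds class I promoters together with the RFX, CREB/ATF and NF-Y factors, had the largest difference of the 10. The gene (chr8:94434356-94527272, plus strand) had 16.97, 15.3 and 11.4 CPM in LC and 72.0, 94.0 and 76.3 CPM in IP+LC. With 10 to 20 UMIs per LC library and 101 to 164 per IP+LC library, the groups were widely apart, and LC replicate 1 lay close to its group. Nlrc5 was 5.60 times higher in IP+LC (log2 fold change 2.49, SE 0.25, 95% interval 1.93 to 3.04, adjusted p = 0.000821), and 0.819% of tested genes had a higher estimate. The log2 fold change ran from 2.32 to 2.65 over 17 other settings and passed the test in all of them. Relative to the heavy chains it acts on, Nlrc5 made 0.574, 0.670 and 0.539 per 100 in LC and 2.36, 2.14 and 2.03 per 100 in IP+LC. That was 3.55 times more (exact permutation p = 0.1, adjusted 0.2), the widest shift of the 10 ratios. Its relative Ciita, which does the same for MHC class II genes, had 16.97, 26.0 and 37.5 CPM in LC and 69.8, 96.8 and 65.6 CPM in IP+LC (log2 fold change 1.46, SE 0.30, adjusted p = 0.00818). The ratio of Nlrc5 to Ciita was 100, 58.8 and 30.4 per 100 in LC and 103, 97.0 and 116 per 100 in IP+LC and LC replicate 1 lay inside the range of IP+LC (exact permutation p = 0.2).

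Of 16 regulators listed for class I transcription, 14 could be tested. Of these, 7 were higher and 0 lower, beside 16.8% and 19.6% of all genes tested. They included Ciita, above, which acts on class II genes, and factors of the interferon response. Irf1, the interferon-gamma response factor, had 161, 103 and 57.8 CPM in LC and 398, 409 and 333 CPM in IP+LC (log2 fold change 1.84, SE 0.33, adjusted p = 0.00511). Irf8, Stat2 and Irf9 were higher as well, by 1.30, 1.45 and 0.56 on the log2 scale, and so were Atf1 (0.97) and Nfkb1 (0.69). Their relatives Irf2 (0.34, adjusted p = 0.411) and Rela (0.37, adjusted p = 0.302) were not called. The tested RFX and NF-Y factors and Creb1, which bind the class I module, did not pass the test. Rfxap had a log2 fold change of 0.60, Nfya 0.49, Nfyb 0.13, Nfyc 0.13 and Creb1 -0.01, and Rfx5 and Rfxank fell under the filter.

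Ranked by level, B2m came first in both groups, followed by H2-K1 and H2-D1, whose ranges overlapped, and then by Tapbp, clear of its neighbours. In LC, H2-T23, Tap1 and Tap2 followed with overlapping ranges, then Erap1, whose range overlapped that of Tap2, and H2-Q4 and Nlrc5 came last with overlapping ranges (16.2 and 14.5 CPM on average). In IP+LC, Tap1 stood clear above Tap2 and H2-T23, Nlrc5 (80.8 CPM) had moved up to overlap with Erap1 (73.2 CPM), and H2-Q4 (16.9 CPM) was last alone. The 10 genes together made 0.918%, 0.688% and 0.662% of the UMIs in LC and 0.885%, 1.33% and 1.104% in IP+LC. Their summed level was 7933 ± 1129 CPM (SD, n = 3) in LC and 10480 ± 1986 CPM (SD, n = 3) in IP+LC, 1.31 times higher with overlapping groups (exact permutation p = 0.2), since LC replicate 1 lay above IP+LC replicate 1. The sum was set by its 3 most abundant genes, H2-K1, H2-D1 and B2m. Without these, the other 7 genes summed to 553, 545 and 456 CPM in LC and to 1096, 1433 and 1268 CPM in IP+LC, 2.44 times higher with no overlap (exact permutation p = 0.1). The 4 heavy chains alone summed to 2450 ± 446 CPM (SD, n = 3) and 3737 ± 671 CPM (SD, n = 3), 1.52 times higher (exact permutation p = 0.1).

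The tumors within each group also had an order. LC replicate 1 was the highest LC tumor for 8 of the 10 genes, IP+LC replicate 1 the lowest IP+LC tumor for 9 and IP+LC replicate 2 the highest for 9. LC replicate 1 was also the LC tumor with the highest sum of macrophage markers, and IP+LC replicates 1 and 2 had the lowest and highest macrophage sums of their group. Their part in this order was not tested. Ptprc, which encodes the leukocyte antigen CD45, had 122, 157 and 211 CPM in LC and 192, 281 and 276 CPM in IP+LC. Its order was that of the 10 genes in IP+LC and not in LC. Other leukocyte markers differed from it, and the sum of all 5 was highest in LC replicate 1 (1206 CPM, against 1060 and 1147 CPM). Coro1a, Laptm5 and Lcp1 were highest in that LC tumor, and Ptprc and Cd53 were lowest there. Per 100 Ptprc UMIs there were 2419, 1448 and 1003 heavy chain UMIs in LC and 1592, 1564 and 1365 in IP+LC. The LC tumors spanned the IP+LC tumors on both sides, and the ratio of the groups was 0.99 (exact permutation p = 1.0), although without LC replicate 1 the ratio was 1.25 times higher in IP+LC. The non-member genes whose pattern over the 6 libraries was most like the mean pattern of the 10 were Pycard, the inflammasome adaptor, Gpr132, a receptor of macrophages and lymphocytes, Gtf2f1, a general transcription factor, Ms4a6b and the checkpoint kinase Chek1. Their root mean square distances were 0.0781, 0.0793, 0.0816, 0.0826 and 0.0932 on the log2 scale, where the median distance of all genes was 0.593 and the first percentile 0.170.

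The rest of the class I pathway was read from lists of companions. Of 26 other class I and class I-like heavy chains listed, 22 were in the tables and 11 could be tested, with 3 higher and 4 lower beside 16.8% and 19.6% of all genes tested. H2-T22 had 91.6, 56.6 and 49.7 CPM in LC and 128, 174 and 133 CPM in IP+LC (log2 fold change 1.16, adjusted p = 0.0133), and its whole transcript has near-identical matches in H2-T10 and other T region genes, so its count is uncertain. H2-Q7, which encodes Qa-2, had 79.8, 87.1 and 64.3 CPM in LC and 103, 157 and 127 CPM in IP+LC (0.74, adjusted p = 0.0421), and its count is uncertain too, since 67.8% of its transcript has near-identical matches in H2-Q5 and H2-Q6. Procr, the class I-like receptor of protein C, was higher by 1.89. Lower in IP+LC were 4 genes. Mr1 presents microbial metabolites to innate-like T cells (-1.15), and Hfe regulates iron uptake (-0.92). Fcgrt carries immunoglobulin G and albumin (-0.78), and H2-Q10 encodes a secreted chain (-1.92, adjusted p = 0.0254). The H2-Q10 value rests on 5 to 19 UMIs in LC and 1 to 8 UMIs in IP+LC. Its level in IP+LC replicate 1, 0.71 CPM, lay under the floor of 2.14 CPM. The median of the list was -0.39.

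Chaperones that fold and load class I molecules were mostly higher, 6 of 8 with 0 lower. The shares of all genes tested, for these and the immunoproteasome genes below, were 16.8% higher and 19.6% lower. Tapbpl, the tapasin-related peptide editor, had 37.3, 38.98 and 22.8 CPM in LC and 67.7, 79.1 and 62.1 CPM in IP+LC (log2 fold change 1.08, adjusted p = 0.0134). Pdia3, the disulfide isomerase of the loading complex, had 533, 485 and 453 CPM in LC and 996, 896 and 872 CPM in IP+LC (0.90, adjusted p = 0.00981). Hspa5, Calr, Canx and Uggt1, which serve all secreted proteins as well, were higher by 1.40, 1.11, 0.87 and 0.77 on the log2 scale, and Ganab and P4hb did not pass the test (0.03 and 0.42). LC replicate 1 lay far above the other LC tumors for Hspa5 and Calr, and without it they were higher by 2.02 and 1.73. Of the 5 immunoproteasome genes, which make peptides with ends that suit class I, 4 were higher and 0 lower: Psmb8 by 1.64, Psmb9 by 1.40, Psmb10 by 1.602 and Psme2 by 1.43, with Psme1 at 0.71 (adjusted p = 0.119). Their median of 1.43 was the highest of the lists.

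Beside the 16.8% of all tested genes that were higher, the 12 tested genes of export and turnover held 3, and 0 were lower: Surf4, a cargo receptor (0.99), Syvn1, a ubiquitin ligase that discards misfolded chains (1.16), and Sec61a1, a subunit of the translocon (0.91). Bcap31, which escorts class I out of the endoplasmic reticulum, had 260, 187 and 166 CPM in LC and 146, 154 and 151 CPM in IP+LC (log2 fold change -0.45, adjusted p = 0.156). Of 14 receptors that bind class I, 5 could be tested, and 1 was higher, a share near that of all genes: Pirb, an inhibitory receptor of myeloid and B cells (0.76, adjusted p = 0.0251). Cd8a, the co-receptor of cytotoxic T cells, had 0.0, 9.94 and 8.96 CPM in LC and 6.41, 25.2 and 23.5 CPM in IP+LC (1.30, adjusted p = 0.171). Klrd1, a chain of the NK cell receptor that reads H2-T23, had 20.4, 41.3 and 48.1 CPM in LC and 17.8, 28.1 and 32.8 CPM in IP+LC (-0.56, adjusted p = 0.246). Cd8b1, which pairs with Cd8a, had 23.8, 21.4 and 17.1 CPM in LC and 9.26, 19.5 and 19.97 CPM in IP+LC (-0.33, adjusted p = 0.502). None of the 3 passed the test, and the estimates of the 2 co-receptor chains had opposite signs. Without LC replicate 1, 28.3% of all genes tested were higher. Of the companions tested with all libraries, 4 other heavy chains, 7 chaperones, 5 peptidases and 5 immunoproteasome genes were then higher. So were 10 regulators, 8 export genes and 1 receptor, while 4 other heavy chains and 1 receptor were lower. The receptors Klra8 and Klra9, under the filter with all libraries, were tested without LC replicate 1 and were lower as well (-1.76 and -3.19).

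**Figure D4:**
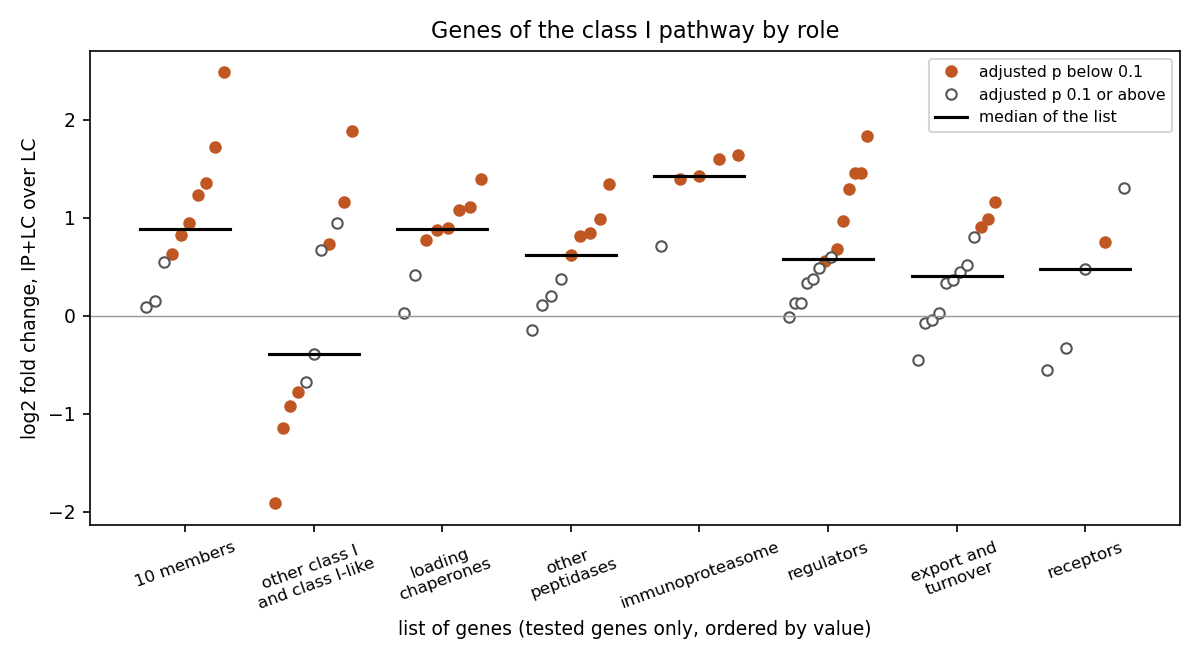
Log2 fold change, IP+LC over LC, of every tested gene of the 10 members and of each list of the class I pathway; filled circles have an adjusted p below 0.1 and the black line is the median of the list. The lists of chaperones, peptidases, immunoproteasome and regulators hold called genes above 0 only, and the other class I-like heavy chains lie on both sides with 3 called above and 4 below.

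Each library was left out in turn to see which of the 10 calls rested on a single tumor. Nlrc5, Tap1, Tap2 and Tapbp were called in all 6 of these fits, and H2-K1 was called only without LC replicate 1, H2-Q4 and B2m in none. Of the 10 genes, 8 were called when LC replicate 1 was left out and 5 when either of the other LC libraries was. For the IP+LC libraries, 5 were called with replicate 1 left out, 4 with replicate 2 and 6 with replicate 3. The sign held for 9 genes, and for H2-Q4 it turned in 3 fits, down to -0.04 without IP+LC replicate 2.

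**Figure D5:**
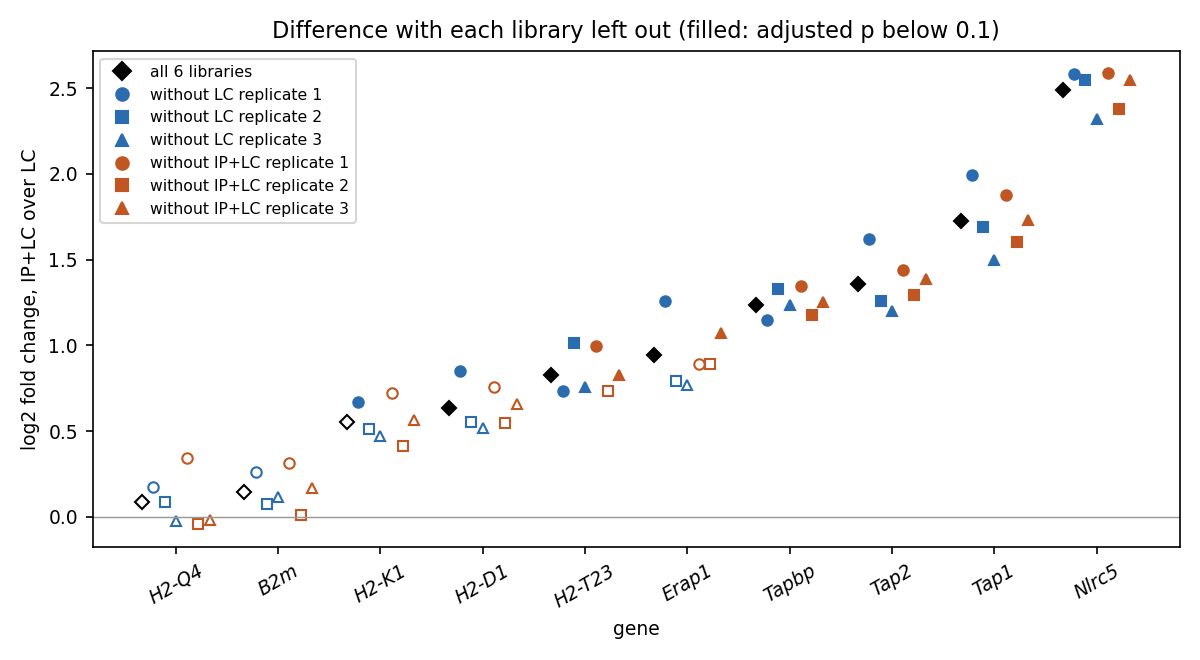
Log2 fold change, IP+LC over LC, of each gene with all 6 libraries (black) and with each library left out (blue for an LC library, orange for an IP+LC library); filled symbols have an adjusted p below 0.1. The 4 genes at the right stay filled throughout, H2-D1 is filled only with all libraries and without LC replicate 1, and H2-Q4 crosses 0.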

How the data were processed

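RNA from 6 tumor samples, 3 per model, was measured by sequencing of barcoded bulk RNA, primed with oligo-dT that carries a UMI. The authors extracted UMIs with UMI-tools 1.1.1, trimmed reads with Trim Galore 0.6.7, aligned them with HISAT2 2.2.1 to GRCm38 and used featureCounts 2.0.1 to find their genes. The deposited values are raw UMI counts by gene, not normalized. Every different UMI was counted, so sequencing errors in UMIs were not merged. The annotation release and the strand setting are not given in the sources used here.

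From these counts, genes were kept by filterByExpr of edgeR 4.0.16 (minimum count 10, minimum total 15), libraries were scaled by TMM, and the quasi-likelihood test compared IP+LC with LC in R 4.3.3 at an adjusted p limit of 0.1, the limit in the study's methods. CPM are after TMM scaling. Ratios within a library used 0.5 UMI as pseudocount on the log2 scale and an exact permutation test, two-sided. Coordinates and transcripts came from GENCODE M21 on GRCm38, promoter windows from RefSeq on GRCm38.p6, and near-identical copies from blastn 2.17.0+ (at least 81 bases at 95% identity). The floor and all counts cover counting error only. No pair of libraries agreed within counting noise (chi-square per degree of freedom from 2.65 to 41.1).

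The members, companion lists and markers were chosen with earlier results of these data known, and 1 gene of the regulator list is not reported here. Named genes were the 10 members, companions within their lists, and the 5 genes with the smallest root mean square distance, over the 6 libraries, between the gene's centred log2(CPM + 4) and the mean of the members. Alternatives were DESeq2 1.42.0, its size factors, upper quartile factors or library size only, limma 3.58.1 voom with and without sample quality weights, robust edgeR, 2 other low-count filters, an adjusted p of 0.05, thinning to 592733 UMIs, a replicate block, a pseudocount of 2 UMIs for ratios, and each library left out.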

Additional observations from a re-analysis of the deposited data

How the results depend on the processing

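Over the 18 other settings, the number of the 10 genes called higher stayed between 5 and 8 except without IP+LC replicate 2, with a range of 4 to 8 when 1 library was left out. Of 180 fitted values of single genes, 156 kept direction and call, 15 lost the call, 6 gained it and 3 changed sign. Those were H2-Q4 with LC replicate 3 (-0.0219), IP+LC replicate 2 (-0.0433) or IP+LC replicate 3 (-0.015) left out, in a range up to 0.345. Scaling by library size only moved the median log2 fold change of all genes from 0.02 to 0.18 and called 8 of the 10. Thinning to the smallest library called 5. Over all genes, 4088 were called, against 6233 with voom and sample quality weights and 2352 after thinning. With 1 library left out they ranged from 2265 (IP+LC replicate 2) to 6691 (LC replicate 1), with 2585 for LC replicate 2 and 2660 for IP+LC replicate 1. Companions called in either direction numbered 33, and 19 to 47 with 1 library left out. The summed log2 difference of 0.39 stayed within its spread (0.28 to 0.56 with 1 library left out). Of 80 other values of ratios, 4 changed sign and 1 moved beyond its spread. On the log2 scale, H2-Q4 and H2-T23 to H2-K1 and H2-D1 turned from 0.144 to -0.0853 without LC replicate 1 (0.333 at the highest). Heavy chains to Ptprc turned from -0.0126 to 0.082 after thinning, and ranged from -0.312 (LC replicate 3 left out) to 0.32 (LC replicate 1), with 0.057 for IP+LC replicate 3. Nlrc5 to heavy chains went from 1.83 to 2.05 after thinning. The cause of these shifts was not tested. Replicate numbers did not pair the tumors (correlations of 0.03, -0.12 and 0.11 for replicates 1, 2 and 3), and LC replicates 1 and 2 correlated best with other numbers. With the replicate block, 3410 genes and 6 of the 10 were called, H2-D1 lost (adjusted p = 0.165), 32 companions were called, and other calls of the 10 held. At 15 to 35 UMIs per IP+LC library, counting error limits H2-Q4.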

Other observations

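Markers of other cell types that carry or read class I molecules gave the following values, beside 16.8% of all genes tested higher and 19.6% lower. Of 7 alveolar macrophage markers 7 were lower in IP+LC, with sums of 1381 to 1639 CPM in LC and 185 to 396 CPM in IP+LC. Of 4 B cell markers 4 were lower (193 to 276 CPM against 33.5 to 135 CPM), and of 4 neutrophil markers 3 were lower (772 to 1812 CPM against 130 to 295 CPM). Of 3 tested NK cell markers 1 was lower, near that share, and the sums overlapped. Of 6 tested dendritic cell markers 1 was higher and 2 lower, and of 6 fibroblast markers 2 were higher and 3 lower, and the dendritic cell counts were near the shares of all genes. The sums of these last lists overlapped between the groups as well. The 5 T cell markers tested had a median log2 fold change of 0.44, and their sums were 88.2 to 118 CPM in LC and 80.5 to 163 CPM in IP+LC.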
